A study of Mus musculus with 2 samples.

Results

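The genes described here encode the major histocompatibility complex (MHC) molecules of the mouse and the machinery that supplies them with peptides. They are 33 of the 55536 genes of the deposited GENCODE M21 tables, found by symbol from a list of names. The class I path has 23 genes: 2 classical heavy chains, 7 nonclassical heavy chains, 2 class I-like chains, the light chain, 5 peptide loading genes, 5 genes of the immunoproteasome and the PA28 activator, and the class I transactivator. The class II path has 10 genes: 3 surface chains, 4 chains of the peptide exchange molecules, the invariant chain and 1 protease that cuts it, and the class II transactivator. On mm10, 21 of the 33 lie on chromosome 17 between bases 33915899 and 37274484, and the light chain gene B2m lies at chr2:122147686-122153083.

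Polyadenylated RNA was read from regulatory T cells labelled as activated. These are CD4 T cells that express Foxp3 and hold other immune cells in check. The donor was a male mouse, 4 months old, of the strain labelled Foxp3CreERT2 x Rosa26YFP, that is with an inducible Cre at Foxp3 and a fluorescent reporter at Rosa26. There was 1 group with 2 libraries, technical replicates 1 and 2 of 1 biological sample, so no condition was compared. The labels trace the cells to a haematopoietic bone marrow cell. Sorting and activation steps were not given in the sources used here. Nor do the labels give the MHC haplotype, and the reference gene models describe C57BL/6J.

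Class I molecules sit on nearly all nucleated cells and show peptides cut from cytosolic proteins by the proteasome. The TAP transporter carries those peptides into the endoplasmic reticulum, where chaperones load them onto a heavy chain paired with B2m. Class II molecules are made mainly by antigen-presenting cells and show peptides from the endosome, after the invariant chain has been cut and its last fragment exchanged for peptide with the help of H2-DM. Activated T cells of humans are known to make class II molecules, while mouse T cells are known for making little of them.

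The libraries held 15076048 and 14635787 estimated gene reads, of which the 33 genes took 279537 (1.854%) and 285447 (1.95%). Levels are in TPM, which divides estimated reads by transcript length and scales each library to the same sum. Each mean ± SD is over both libraries (n = 2, technical replicates of 1 sample), so the SD holds no spread between animals. All 6 regulatory T cell markers listed reached 1 TPM in both libraries, from Foxp3 at 22.4 TPM to Cd3e, a chain of the T cell receptor complex, at 648 TPM.

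The stretches below are the 200 bases before the annotated start of 6 genes whose levels span the range described in the rest of the text: the classical heavy chain gene H2-K1, the nonclassical H2-Q7 and H2-Q4, the light chain gene B2m, and the class II genes H2-Aa and H2-Eb1. They are RefSeq sequences of build GRCm38.p6, written 5′ to 3′ on the strand of the gene. Capitals mark exact matches on either strand to the letters GGGATTCC (a form of the kappa-B site), GAANNGAAA (a form of the interferon response element), CCAAT (the NF-Y box), AGNAAC (a form of the X1 box bound by regulatory factor X) and TGACG (a part of the cyclic AMP response element). Some of these letters overlap each other.
H2-K1, chr17:34000348-34000547, minus strand: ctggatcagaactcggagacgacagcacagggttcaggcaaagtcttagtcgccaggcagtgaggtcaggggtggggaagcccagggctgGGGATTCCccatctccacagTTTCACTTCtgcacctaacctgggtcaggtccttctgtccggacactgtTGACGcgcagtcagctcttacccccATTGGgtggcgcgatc
H2-Q7, chr17:35438955-35439154, plus strand: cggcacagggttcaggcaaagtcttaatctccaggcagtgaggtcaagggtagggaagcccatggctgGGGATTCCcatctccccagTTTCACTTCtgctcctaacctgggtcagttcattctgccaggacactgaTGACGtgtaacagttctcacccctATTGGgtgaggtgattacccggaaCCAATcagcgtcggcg
H2-Q4, chr17:35379417-35379616, plus strand: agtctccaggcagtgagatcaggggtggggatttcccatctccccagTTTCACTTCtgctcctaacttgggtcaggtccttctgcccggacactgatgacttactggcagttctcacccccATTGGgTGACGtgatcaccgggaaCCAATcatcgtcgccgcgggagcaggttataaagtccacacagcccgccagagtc
B2m, chr2:122147486-122147685, plus strand: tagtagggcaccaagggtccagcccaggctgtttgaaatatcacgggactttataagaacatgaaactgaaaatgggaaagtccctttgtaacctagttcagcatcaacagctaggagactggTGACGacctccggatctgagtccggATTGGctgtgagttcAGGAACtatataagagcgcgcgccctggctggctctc
H2-Aa, chr17:34287824-34288023, minus strand: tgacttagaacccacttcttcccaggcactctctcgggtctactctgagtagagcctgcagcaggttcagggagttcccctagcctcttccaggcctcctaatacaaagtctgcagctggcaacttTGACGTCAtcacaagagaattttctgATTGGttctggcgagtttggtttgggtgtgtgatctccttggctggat
H2-Eb1, chr17:34305667-34305866, plus strand: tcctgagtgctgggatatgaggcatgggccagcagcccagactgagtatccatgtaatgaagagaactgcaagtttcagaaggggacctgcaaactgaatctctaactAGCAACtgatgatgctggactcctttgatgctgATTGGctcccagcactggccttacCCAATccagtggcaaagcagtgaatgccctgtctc

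Promoters of 25 of the 33 genes were in the table, as 28 windows from 250 bases before to 50 bases after a start. H2-T24, Tap2, Tapbpl, Nlrc5, Cd1d1, H2-Ab1, Cd74 and Ciita had no entry. GGGATTCC stood in 5 of the 28 windows and in 1.06% of 32851 mouse promoters of the same length, and the 4 genes with it were H2-K1, H2-D1, H2-Q6 and H2-Q7. GAANNGAAA stood in 9 of the 28 and in 7.52% of all promoters. It was found in 6 of 8 heavy chain genes with a window, and in none of 6 class II surface and exchange genes. CCAAT stood in 19 of the 28 and in 37.4% of all promoters, including each of those 8 heavy chain genes and each of those 6 class II genes. AGNAAC, found in 48.1% of all promoters, was in 4 of the 8 heavy chain genes and in 5 of the 6 class II genes. TGACG, found in 20.8% of all promoters, was in 6 of the 8 and in 1 of the 6, H2-Aa. In the printed stretches H2-K1 and H2-Q7 hold GGGATTCC a short way before GAANNGAAA, while H2-Q4 holds GAANNGAAA without an exact GGGATTCC. Only the exact forms given were searched, so the lack of a match does not show that a site of that kind is absent. These matches describe letters and not binding.

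Of the 33 genes, 32 reached 1 TPM in both libraries, 27 reached 10 TPM and 18 reached 100 TPM. Among all 22028 protein-coding genes, 46.2% reached 1 TPM in both libraries and 5.25% reached 100 TPM. The exception below 1 TPM was Ciita. All 23 class I path genes passed 1 TPM, and 15 of them passed 100 TPM. Of the 10 class II path genes, 9 passed 1 TPM and 3 passed 100 TPM. The median log2(TPM + 1) of the class I path was above that of the class II path by 4.24 in library 1 and 3.97 in library 2 (4.11 ± 0.19). The groups overlapped, since H2-Q4 lay below several class II path genes and Ctss, Cd74 and H2-DMa lay above several class I path genes.

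**Figure D1:**
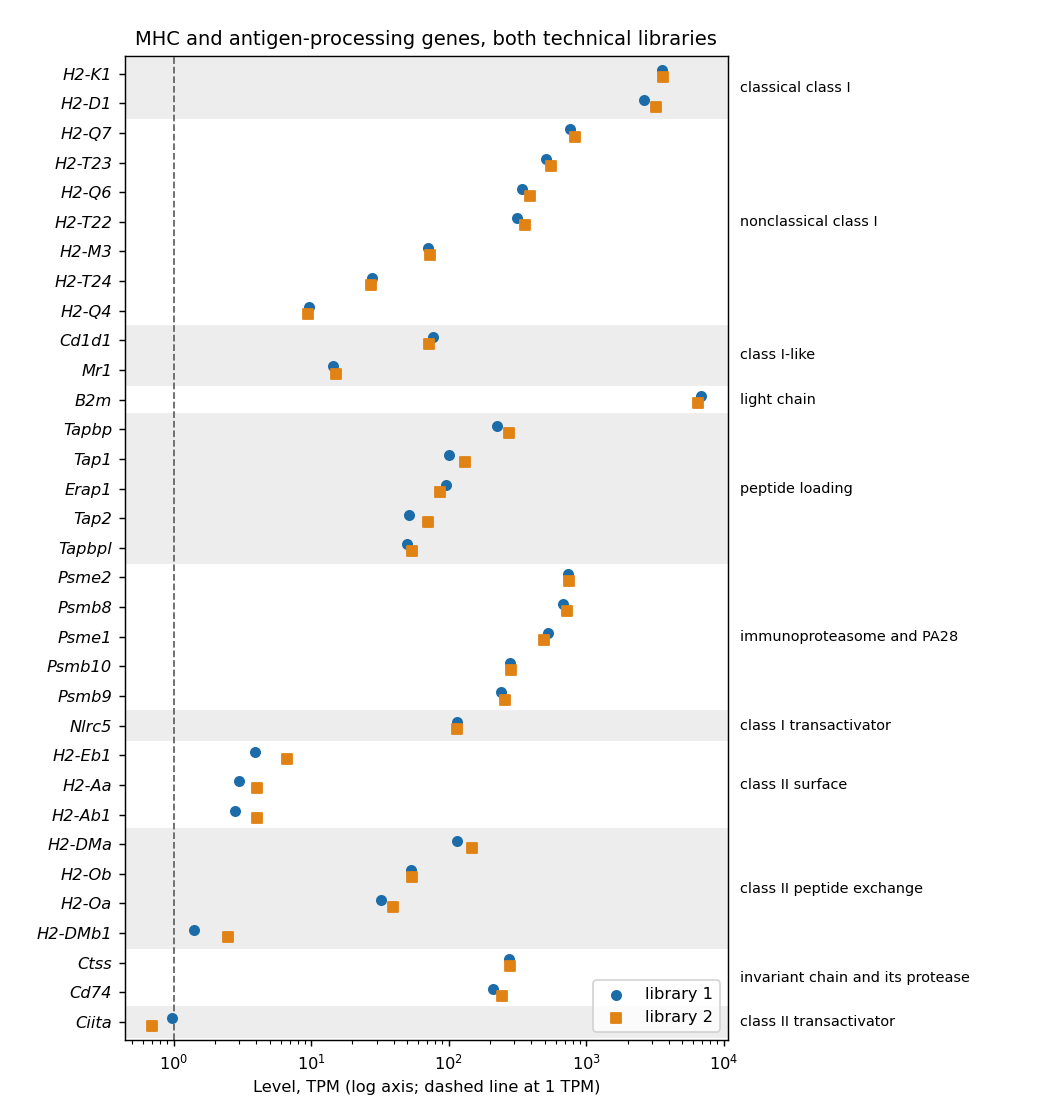
Level of each of the 33 genes in TPM (log axis) in library 1 (circles) and library 2 (squares), grouped by role, with a dashed line at 1 TPM. B2m and the classical heavy chains lie highest, the class II surface chains and H2-DMb1 lie under 10 TPM, and Ciita lies under 1 TPM.

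The classical heavy chains and the light chain were among the most abundant transcripts of these cells. B2m, the light chain that every class I heavy chain pairs with, had 6785.50 TPM in library 1 and 6524.44 TPM in library 2 and ranked 6 among protein-coding genes in both. H2-K1, at chr17:33996017-34000347, had 3529.19 and 3591.94 TPM. H2-D1, at chr17:35262730-35267499, had 2615.84 and 3218.27 TPM. H2-K1 was therefore above H2-D1 by TPM in each library, with a ratio of 1.23 ± 0.165. That order depended on the scale. The ratio was 0.712 ± 0.0806 by estimated reads and 0.785 ± 0.0835 by TPM of protein-coding transcripts. It was 1.20 in a further deposited table of whole-number counts. Those counts are not scaled by length and flatten at high levels, so they cannot decide the order. The mean length used for H2-K1 was 1078 bases in library 1 against 1892 bases for H2-D1, and protein-coding transcripts made up 62.6% ± 1.69 of the H2-K1 TPM against 98.1% ± 0.0636 for H2-D1. B2m stood at 1.03 ± 0.103 of the summed TPM of the classical chains. It stood at 0.767 ± 0.0744 of all heavy chains together, here with the class I-like Cd1d1 and Mr1 included. By protein-coding transcripts those ratios were 1.32 ± 0.167 and 0.973 ± 0.111, and by estimated reads the first was 0.578 ± 0.0712.

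The nonclassical heavy chains spread over a wide range. H2-Q7, one of the genes that encode the Qa-2 antigen, had 765.42 and 823.96 TPM, and its neighbour H2-Q6 had 340.47 and 388.73 TPM. H2-T23, which encodes the Qa-1 chain that presents leader peptides to receptors of natural killer and T cells, had 513.08 and 556.43 TPM. H2-T22, a ligand of some gamma delta T cell receptors, had 313.78 and 356.10 TPM. These 4 genes lay apart from the other 3 in both libraries. H2-M3, which presents formylated peptides, had 71.04 and 72.96 TPM. H2-T24 had 27.51 and 27.06 TPM. H2-Q4 had 9.59 and 9.53 TPM, of which its retained-intron transcript took 96.07% and 95.97%, leaving 0.38 TPM for the protein-coding transcript in each library. Among the class I-like genes, Cd1d1, which presents lipids to natural killer T cells, had 77.38 and 71.91 TPM, and Mr1, which presents vitamin metabolites to mucosal-associated invariant T cells, had 14.44 and 15.28 TPM.

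Heavy chain genes resemble each other, which limits how reads of 50 bases can be divided between them. Of the different 50-base windows in the annotated transcripts of H2-T22, 53.5% also occurred in another gene, most often in H2-T10 (31.2%). H2-T10, a further nonclassical gene outside the 33 that is annotated as a polymorphic pseudogene, had 168 TPM on average. The share was 36.4% for H2-Q4, 34.97% for H2-Q6 and 26.5% for H2-Q7, and it was 9.63% for H2-K1 and 12.8% for H2-D1. For H2-Q4 the largest part, 15.3%, was with a gene whose exons overlap it on the other strand. With others of the 33 alone, the shares were 2.28% for H2-T22, 13.4% for H2-Q4, 24.5% for H2-Q6 and 8.38% for H2-Q7. Outside the heavy chains, Psme2 shared 28.3% with its copy Psme2b, Tapbp 23.2% with other genes in all, H2-DMb1 22.7% with H2-DMb2 and Cd1d1 19.1% with Cd1d2. B2m, Psmb10, Mr1, H2-Ab1, H2-Eb1, H2-Ob, Cd74 and Ctss shared none. Sharing makes the levels of such genes less certain, but the share is not the size of the error. The deposited posterior SD scores the uncertainty of each estimated count. It was 0.680% and 0.637% of the count for H2-T22, 3.44% and 3.46% for H2-Q4, and 12.7% and 9.06% for H2-DMb1.

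**Figure D2:**
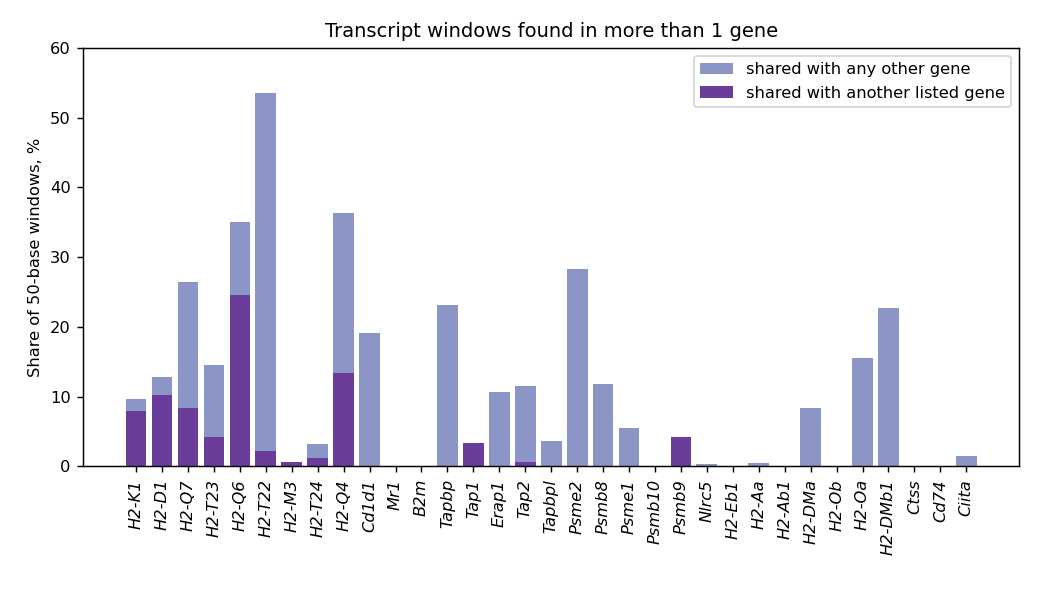
Share of each gene's 50-base transcript windows that also occur in any other annotated gene (light bars) or in another of the 33 genes (dark bars), in percent. H2-T22 reaches 53.5%, the highest of the 33, and 8 genes are at 0.

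The genes that load peptides onto class I chains were all expressed, at lower levels than the classical heavy chains. Tapbp, the tapasin that holds empty class I molecules at the transporter, had 225.70 and 274.46 TPM, and its relative Tapbpl had 49.51 and 54.05 TPM (ratio 4.82 ± 0.367). In the table of whole-number counts, which are not scaled by length, that ratio was 2.08. Tap1 had 101.29 and 130.50 TPM and Tap2, the other subunit of the transporter, had 51.44 and 70.88 TPM. The ratio of Tap1 to Tap2 was 1.91 ± 0.0905. It was 5.18 ± 0.180 by protein-coding transcripts, because the retained-intron transcript Tap2-202 took 65.92% and 69.78% of the Tap2 TPM. Erap1, the aminopeptidase that trims peptides in the endoplasmic reticulum, had 95.44 and 87.06 TPM. All 6 listed folding genes of the endoplasmic reticulum passed 1 TPM in both libraries, from Uggt1 at 16.1 TPM to Pdia3, the oxidoreductase of the loading complex, at 912 TPM. All 6 peptidases found passed as well, from Thop1 at 2.70 TPM to Tpp2 at 91.4 TPM.

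The 3 immunoproteasome catalytic subunits replace constitutive ones when the proteasome is assembled, which changes the peptide ends it makes. Psmb8 had 674.19 and 726.72 TPM, Psmb9 had 241.91 and 254.76 TPM, and Psmb10 had 278.26 and 282.50 TPM. Psmb8 exceeded Psmb5, which it replaces, by a ratio of 5.05 ± 0.0488. Psmb10 exceeded Psmb7 by a ratio of 3.11 ± 0.103. Psmb9 did not exceed Psmb6 by TPM (0.917 ± 0.0161), although it did by estimated reads (1.26). By protein-coding transcripts the same 3 ratios were 2.82, 1.33 and 0.383, so the order of Psmb9 and Psmb6 was the same as by TPM. Psmb9 TPM lay mostly on transcripts not annotated as protein-coding, with 47.69% and 43.69% on 1 transcript annotated for nonsense-mediated decay. The list of 5 counterparts held Psmb5, Psmb6 and Psmb7, and also Psme3 and Psme4, which are not catalytic subunits. Their levels ranged from Psme4 at 21.3 TPM to Psmb6 at 271 TPM. None of the 5 passed the test between the libraries described at the end of the text, against 24.3% of all genes tested.

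Psme1 and Psme2, the subunits of the PA28 activator that opens the proteasome, had 529.12 and 495.25 TPM and 740.59 and 744.99 TPM. The Psme2 to Psme1 ratio was 1.45 ± 0.0740 by TPM, 1.18 ± 0.0837 by protein-coding transcripts and 0.995 by estimated reads. Psme1 stood 17.6 ± 1.73 times above Psme3, the subunit of the nuclear activator, by TPM, 6.41 times by estimated reads and 5.83 times in the whole-number table. Psmb9 and Tap1 start in opposite directions beside each other, Psmb9 at chr17:34181987-34187764 and Tap1 at chr17:34187553-34197225, and their annotated exons overlap. Psmb9 was at 2.17 ± 0.308 of Tap1 by TPM, 1.05 by protein-coding transcripts and 0.801 by estimated reads. The strandedness was not given in the sources used here, and without it reads from the overlap cannot be assigned to 1 gene. In all, 13 of the 33 genes have exons that overlap a gene on the other strand.

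**Figure D3:**
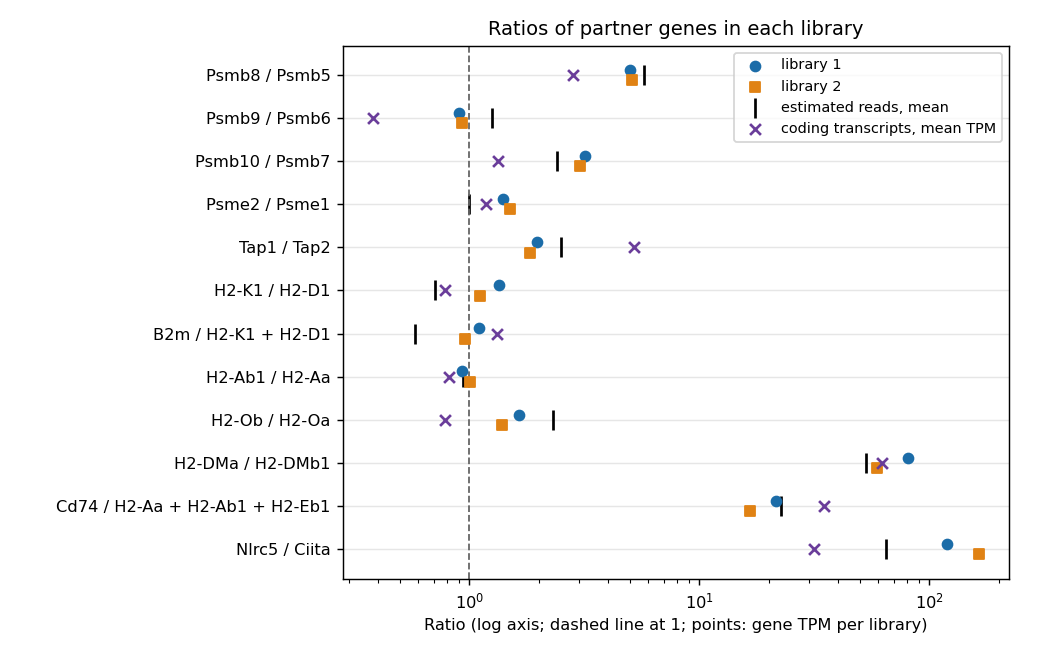
Ratios of partner genes on a log axis: circles (library 1) and squares (library 2) are ratios of gene TPM, bars are the mean ratio of estimated reads, crosses are the mean ratio of protein-coding transcript TPM. Psmb8 exceeds Psmb5 and Psmb10 exceeds Psmb7 on all 3 scales, while H2-K1 to H2-D1 lies above 1 by gene TPM and below 1 on the other scales.

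Nlrc5, the transactivator of class I genes, had 115.40 and 114.59 TPM. Its retained-intron transcript Nlrc5-203 took 62.53% and 58.84% of that, and its protein-coding transcripts had 20.73 and 25.23 TPM. Across the 28 genes with 5 TPM or more in both libraries, the leading transcript was protein-coding in 24. It was the same transcript in both libraries in 27, the exception being H2-T22. The leading transcript was not protein-coding in H2-Q4, Tap2, Psmb9 and Nlrc5. Such shares are estimates of a model from short reads. Of the 33 genes, 24 had 50% or more of their TPM on protein-coding transcripts in both libraries, and 8 had less than 50% in both. Factors that act with Nlrc5 or downstream of interferon were expressed. All 7 genes of regulatory factor X and NF-Y and their partner passed 1 TPM, from Rfxap at 3.88 TPM to Nfyb at 64.7 TPM. All 11 listed genes of the interferon pathway passed. Irf8 had 12.8 TPM, and Irf1, an activator of class I path genes, had 194 TPM.

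The class II surface chains were detected at a low level. H2-Aa had 3.00 and 4.04 TPM from 40 and 51 reads, H2-Ab1 had 2.78 and 4.05 TPM from 32 and 55 reads, and H2-Eb1 had 3.92 and 6.65 TPM from 44 and 76 reads. Their summed TPM was 0.158% of that of H2-K1 and H2-D1 in library 1 and 0.216% in library 2 (0.187% ± 0.0414). In the whole-number table, which flattens at high levels (B2m has 880 and 889 counts there), the share was 2.31%. H2-Eb1 had 0.00 and 0.50 TPM on protein-coding transcripts, with most of its reads on a transcript annotated for nonsense-mediated decay. Ciita, the class II transactivator, had 0.97 and 0.70 TPM, and Nlrc5 stood 141 ± 31.6 times above it by TPM, 64.5 times by estimated reads and 31.6 ± 10.2 times by protein-coding transcripts. In bulk RNA, a few cells with many transcripts and many cells with few cannot be told apart.

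Most of the rest of the class II path was higher, with H2-DMb1 and Ciita as the exceptions. Cd74, the invariant chain that fills the groove of new class II molecules, had 209.26 and 244.03 TPM, which was 19.1 ± 3.55 times the summed TPM of H2-Aa, H2-Ab1 and H2-Eb1. That ratio was 34.9 by protein-coding transcripts and 11.6 in the whole-number table. Ctss, the cathepsin that cuts the invariant chain, had 276.16 and 280.79 TPM, and Ctsl had 2.55 TPM on average. H2-DMa, 1 chain of the exchange molecule H2-DM, had 115.27 and 147.01 TPM, while its partner H2-DMb1 had 1.42 and 2.49 TPM. The ratio of H2-DMa to H2-DMb1 was 70.1 ± 15.7, and 20.7 ± 3.19 when H2-DMb2, the near copy of H2-DMb1, was added to the denominator. H2-DMa exons overlap another gene on the opposite strand. H2-Oa and H2-Ob, the chains of the H2-O inhibitor of H2-DM, had 32.47 and 39.23 TPM and 53.64 and 54.43 TPM. The H2-Ob to H2-Oa ratio was 1.52 ± 0.187 by TPM, 2.30 by estimated reads and 0.784 ± 0.0142 by protein-coding transcripts. Of 10 other endosomal genes, 7 passed 1 TPM in both libraries, led by Ctsb at 347 TPM, while March8, a ubiquitin ligase that removes class II molecules from the surface, had 0.175 TPM.

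Markers of cells known to make class II were also low. The 8 B cell markers summed to 42.66 and 48.07 TPM, of which Cd79b gave 38.5 TPM on average. The 8 dendritic cell markers summed to 3.88 and 4.46 TPM, with Itgax, Clec9a and Siglech at 0. The 8 monocyte and macrophage markers summed to 3.88 and 6.25 TPM, with Cd68 highest at 2.53 TPM. Cd14 had 0 reads in both libraries, which allows up to 0.201 and 0.213 TPM (3 reads, counting error only). In that last list Lyz2, the lysozyme of myeloid cells, had 0.61 and 2.83 TPM, and its reads were higher in library 2 (adjusted p = 8.59e-05, exact binomial test with Benjamini-Hochberg adjustment). The macrophage receptor gene Csf1r had 0.04 and 0.32 TPM and was higher in library 2 as well, while Zbtb46 of the dendritic cell list, at 3.26 and 2.48 TPM, was higher in library 1. Class II path genes were higher in library 2 than in library 1 by point estimate, except Ciita and Ctss. The part of these other cells in the class II values was not tested.

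**Figure D4:**
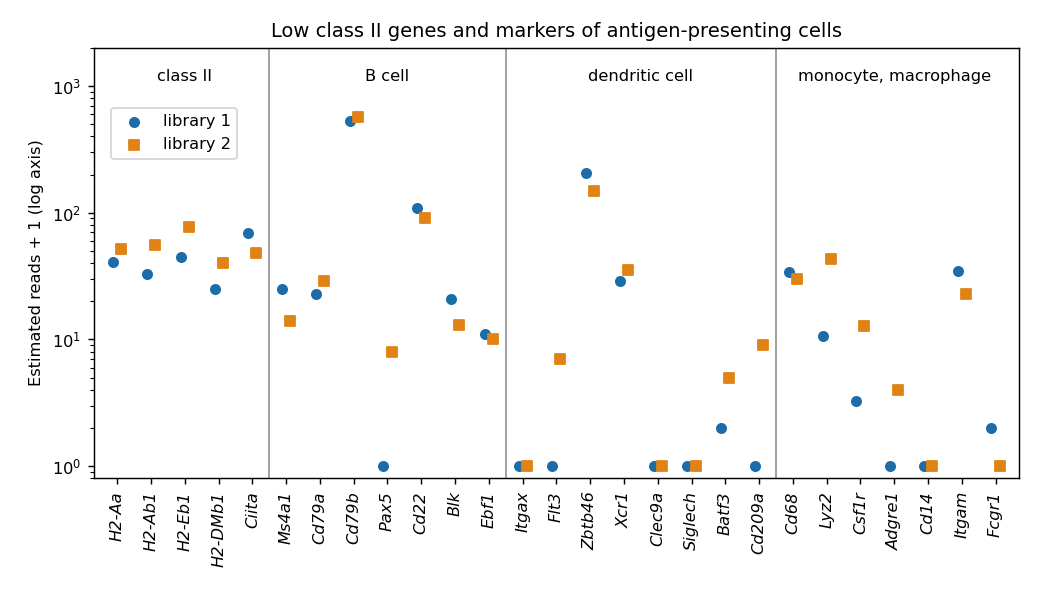
Estimated reads plus 1 (log axis) in library 1 (circles) and library 2 (squares) of the 5 lowest class II path genes and of 7 markers of B cells, 8 of dendritic cells and 7 of monocytes or macrophages. Cd79b is the highest gene shown. Among the 4 monocyte and macrophage markers tested, Lyz2 and Csf1r lie higher in library 2 and Cd68 and Itgam lower. Csf1r had only 2.25 and 11.85 estimated reads.

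The comparison of the libraries shows how reproducible each level was between technical replicates. The reads of each gene were compared by a two-sided exact binomial test, adjusted by Benjamini-Hochberg, so it covers counting error between 2 libraries of 1 sample and not a condition. Of 17271 genes tested, 24.3% differed at an adjusted p under 0.05. Of the 33 genes, 16 differed: 12 were higher in library 2, against 12.7% of all genes, and 4 were higher in library 1, against 11.6%. Deep genes are called more often: among 831 genes with at least 6152 summed reads, the median of the 33, 62.7% were called, and 12 of the 17 members at that depth were. The share of calls among the deep members was thus near that of other deep genes. The median log2 ratio, library 2 over library 1, was 0.09 for the 33 genes and -0.01 for all genes tested.

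H2-D1 had the smallest adjusted p of the 33, with a log2 ratio of 0.25 (95% interval 0.24 to 0.27, counting error only; adjusted p = 6.21e-215, exact binomial test). Tap2 had the largest ratio among called class I path genes (0.52, 95% interval 0.42 to 0.63, adjusted p = 1.04e-21, exact binomial test). Tap1, at 0.29, Tapbp, at 0.20, and the heavy chains H2-Q6, H2-Q7, H2-T22 and H2-T23, at 0.07 to 0.15, were higher in library 2 as well, as was Psmb8 at 0.08. B2m was lower in library 2 by a log2 ratio of -0.10 (adjusted p = 1.37e-31, exact binomial test), and Erap1, Psme1 and Cd1d1 were lower at -0.16, -0.11 and -0.21. In the class II path H2-DMa (0.31), Cd74 (0.18) and H2-Eb1 (0.82, 95% interval 0.28 to 1.40) were higher in library 2. H2-Ab1 had a similar ratio, 0.81, and an adjusted p of 0.05004 by the exact binomial test, just above the threshold. H2-K1 had a ratio of 0.02 and did not pass (adjusted p = 0.126, exact binomial test). Against the 12.7% of all genes that were higher in library 2, 3 of 6 folding genes, 2 of 6 peptidases, 1 of 7 genes of the regulatory factor X and NF-Y list and 3 of 10 endosomal genes were higher there. Against the 11.6% higher in library 1, 1 folding gene, 1 gene of the regulatory factor X list, 1 endosomal gene and none of the peptidases were higher in that library. No call among the 33 survived in a test that allows for a dispersion of 0.01 between libraries (edgeR), where 3 of the 33 had an unadjusted p under 0.05. With TMM or DESeq2 library sizes the binomial test called 20 and 16 of the 33. The whole-number table gave 4 calls among the 33: Tap1, Tap2 and Nlrc5 were higher in library 2 and Erap1 was lower. There H2-D1 had a ratio of 0.00191, H2-T23 of 0.00790, Psmb8 of 0.00919 and Cd74 of 0.0785, none of them called, and B2m (0.0158) and H2-Q7 (-0.0421) had ratios of the opposite sign. These counts flatten at high levels (H2-D1 has 1915 and 1916), so they cannot decide whether the calls of the most abundant genes hold.

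**Figure D5:**
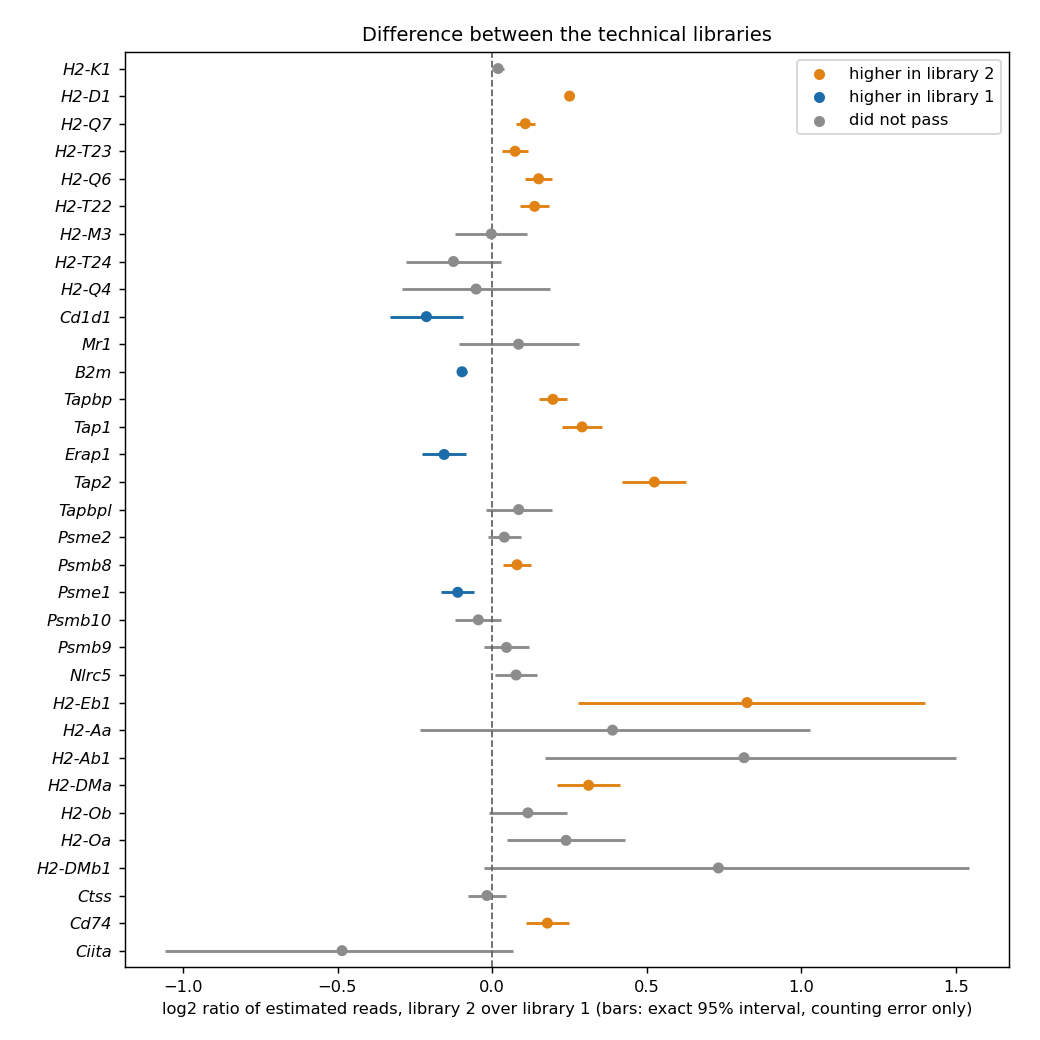
Log2 ratio of estimated reads, library 2 over library 1, for each of the 33 genes with its exact 95% counting interval; orange marks genes higher in library 2, blue those higher in library 1 and grey those that did not pass. H2-D1 and B2m have the narrowest intervals, and the class II surface genes, H2-DMb1 and Ciita the widest.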

How the data were processed

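Per the labels, 2 polyadenylated RNA libraries were technical replicates of 1 sample. The deposited gene and transcript tables (mm10, GENCODE M21, per the deposited file listings) hold expected counts that need not be whole, TPM and FPKM, and the deposited transcript table holds the percent of a gene's TPM on each transcript. The posterior columns, also deposited per the file headers, gave a score of the uncertainty of each estimate. A further deposited table holds whole-number counts (GENCODE M4) and was used only as an alternative. It flattens at high levels. The aligner and quantifier were not given in the sources used here. Reads were 50 bases long by the length columns. Rows naming no gene held 0.142% and 0.186% of reads and entered neither library sizes nor tests.

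The expected counts were first rounded to integers, and genes with a summed count of 10 or more entered an exact two-sided binomial test of library 2 against library 1, with Benjamini-Hochberg adjustment at 0.05. Log2 ratios add 0.5 to each count. Exact Poisson intervals and the 3-read floor cover counting error only. With 1 group edgeR's quasi-likelihood test could not be fitted, for want of residual degrees of freedom. TMM sizes and a test at an assumed dispersion of 0.01 used edgeR 4.0.16, and size factors used DESeq2 1.42.0 (R 4.3.3, Python 3.11.15, scipy 1.17.1). A run on simulated data tested the binomial step. Promoters came from RefSeq (GRCm38.p6). Every one of the 33 genes could be named, and of each pathway or marker list any gene, the top and bottom one by TPM always, except a few genes that are left unreported. Psme2b and Cd1d2 were named after their window sharing was seen. Members and lists were chosen with earlier results of these data known. The alternatives included other library sizes, units and thresholds, and, added after seeing the data, protein-coding transcripts only and the ratios on other scales.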

Additional observations from a re-analysis of the deposited data

How the results depend on the processing

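No paired analysis was possible because the 2 libraries form 1 group. The number of members at 1 TPM in both libraries was 32 without either library. Leaving out 1 library gave 3.97 to 4.24 for the class I minus class II difference and 0.158% to 0.216% for the class II share. The difference was 3.51 as a mean over members, 3.48 by protein-coding transcripts and 3.22 in the whole-number table, and the share was 0.131% by estimated reads, 0.130% by protein-coding transcripts and 2.31% in the whole-number table. Genes differing between libraries were 4198 in the binomial test, 4206 with TMM sizes, 4233 with DESeq2 size factors, 492 at a dispersion of 0.01 in edgeR and 1092 in the whole-number table. Members differing were 16, 20, 16, 0 and 4 in the same order. The whole-number table reversed the log2 ratios of H2-K1 (-0.00826), H2-Q7 (-0.0421), B2m (0.0158), Psmb9 (-0.0499), Mr1 (-0.349) and H2-Ob (-0.122), and TMM sizes that of H2-M3 (0.00978). By estimated reads, ratios crossed 1 for H2-K1 to H2-D1 (0.712), B2m to the classical chains (0.578), Psmb9 to Psmb6 (1.26), Psme2 to Psme1 (0.995) and Psmb9 to Tap1 (0.801). In the whole-number table they did for B2m to the classical chains (0.210), Psme2 to Psme1 (0.404) and Psmb9 to Tap1 (0.559). By protein-coding transcripts they did for H2-K1 to H2-D1 (0.785), H2-Ob to H2-Oa (0.784) and H2-Eb1 to H2-Aa (0.0617). The cause was not tested. Depth limits H2-Aa, H2-Ab1, H2-Eb1, H2-DMb1 and Ciita, which had under 100 reads in each library.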

Other observations

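Other H2 genes outside the 33 were mostly low. Of 11 listed, 6 passed 1 TPM in both libraries, from H2-T10 at 168 TPM down to H2-Bl at 1.68 and 1.32 TPM. The lowest of the 11 was H2-Ea-ps, at 0.04 TPM. H2-T10, H2-Bl and H2-Ea-ps are annotated as polymorphic pseudogenes in this reference. H2-T10 was higher in library 2 (log2 ratio 0.15, adjusted p = 1.23e-04, exact binomial test with Benjamini-Hochberg adjustment), as H2-T22 was, with which it shares transcript windows. March1, a ubiquitin ligase that removes class II molecules from the cell surface, had 0.92 and 0.20 TPM and was lower in library 2 (log2 ratio -2.14, adjusted p = 1.58e-03, exact binomial test with Benjamini-Hochberg adjustment). In the interferon list 6 of 11 genes were higher in library 2 and none in library 1, against 12.7% of all genes. Irf1 was among the 6, with a log2 ratio of 0.18.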
